A study of Mus musculus with 16 samples.

Results

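Neuroendocrine cells store peptides and amines in dense-core secretory granules, and 10 mouse genes of that program were followed here through thymic epithelium. They were taken by name from the 23420 gene entries of a count table and the 23063 entries of a table of RPKM (read counts over gene length and library total), and all 10 were present in both. The list was chosen by name, and 2 of its genes, Insm1 and Syt1, were selected on their higher counts in cortical cells without Psmb11, so their levels in cortical cells are given as a description with no test. The other 8 are Neurod1, Chga, Chgb, Scg2, Scg3, Resp18, Pcsk1 and Calca.

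The 16 RNA-seq libraries came from 6 groups. Cortical thymic epithelial cells (cTEC) gave 2 psmb11-/- libraries (KO) and 2 wild-type libraries (WT). The medullary population with high MHC class II, mTEChi, gave 3 KO and 3 WT libraries, and the one with low MHC class II, mTEClo, gave the same numbers. Psmb11 encodes a catalytic subunit of the proteasome form found in cTEC. The strain label names a C57BL/6-derived BAC. Cells were sorted as CD45- EpCAM+, then as Ly51+ UEA1- for cTEC and Ly51- UEA1+ for medullary cells. The sample labels give an age of 6 to 8 weeks and the series text 11 thymi, whereas the extraction protocol gives 7 days and 14 mice. Whether libraries of different populations share animals, and how many mice each library pools, is not stated, so p-values measure the spread between these libraries.

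As background, the program runs from transcription factors to cargo. Insm1 (a zinc-finger repressor) and Neurod1 (a bHLH factor) direct endocrine and neuronal differentiation. Chga, Chgb, Scg2 and Scg3 encode granins, the acidic proteins that pack the dense core. Resp18 is a granule protein of endocrine cells, Pcsk1 a convertase that cuts prohormones, Syt1 a calcium sensor of vesicle fusion, and Calca the gene of calcitonin and calcitonin gene-related peptide. In the thymus, medullary cells transcribe many tissue-restricted genes, a part of them under the regulator Aire, and so display their products to developing T cells. The medulla also holds epithelial cells that resemble cell types of other organs.

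The libraries held 64753610 to 146707262 gene counts, and levels below are CPM, the counts of a gene scaled to a common library total with TMM factors. A count of 3 was worth at most 0.0463 CPM. Between 5757 and 8541 gene entries had no count in the cTEC KO libraries and 6108 to 6938 in the cTEC WT libraries, against 2293 to 2703 in mTEChi and 4625 to 5119 in mTEClo of both genotypes. Between 13.7% and 30.4% of the reads fell in no gene. Psmb11 stood at 0 to 2.11 CPM in the cTEC KO libraries against 139 to 170 CPM in cTEC WT, and at 0.715 to 1.63 CPM in medullary KO against 8.06 to 13.0 CPM in medullary WT. Summed over 10 cortical markers, levels were 4473 to 8006 CPM in cTEC, 988 to 1091 CPM in mTEChi and 2336 to 2887 CPM in mTEClo. Ccl21a, a medullary marker, was listed at 0 in every library and had no RPKM entry, so its 0 is not read as a lack of expression.

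Per gene length, the 10 genes spanned over 2 orders of magnitude. In mTEChi KO, mean levels were 112 RPKM for Resp18, 101 RPKM for Syt1, 84.9 RPKM for Insm1 and 75.4 RPKM for Calca. In mTEClo KO the highest was Chga with 82.2 ± 6.7 RPKM (SD, n = 3), followed by Resp18 with 28.8, Scg2 with 22.0 and Syt1 with 20.6 RPKM. Scg3, Pcsk1 and Neurod1 were low throughout, with group means of at most 1.72, 2.28 and 0.623 RPKM. In order of mean RPKM, Insm1 ran mTEChi KO (84.9), mTEChi WT (83.4), cTEC KO (11.2), mTEClo WT (10.4), mTEClo KO (9.56) and cTEC WT (2.61). Only the steps from mTEChi WT to cTEC KO and from mTEClo KO to cTEC WT separated neighbours in that order whose libraries did not overlap. The genes lie on 7 chromosomes (mm10) and all are protein coding. Neurod1 (chr2:79452641-79456636, minus strand) has exons that overlap Cerkl on the same strand and Gm26755 on the opposite strand. Resp18 (chr1:75272202-75278380, minus strand) overlaps Gm28902 on the opposite strand. Reads in such shared stretches may be set aside as ambiguous or counted for the other gene. Insm1 (chr2:146221997-146225018, plus strand) has 1 exon.

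**Figure D1:**
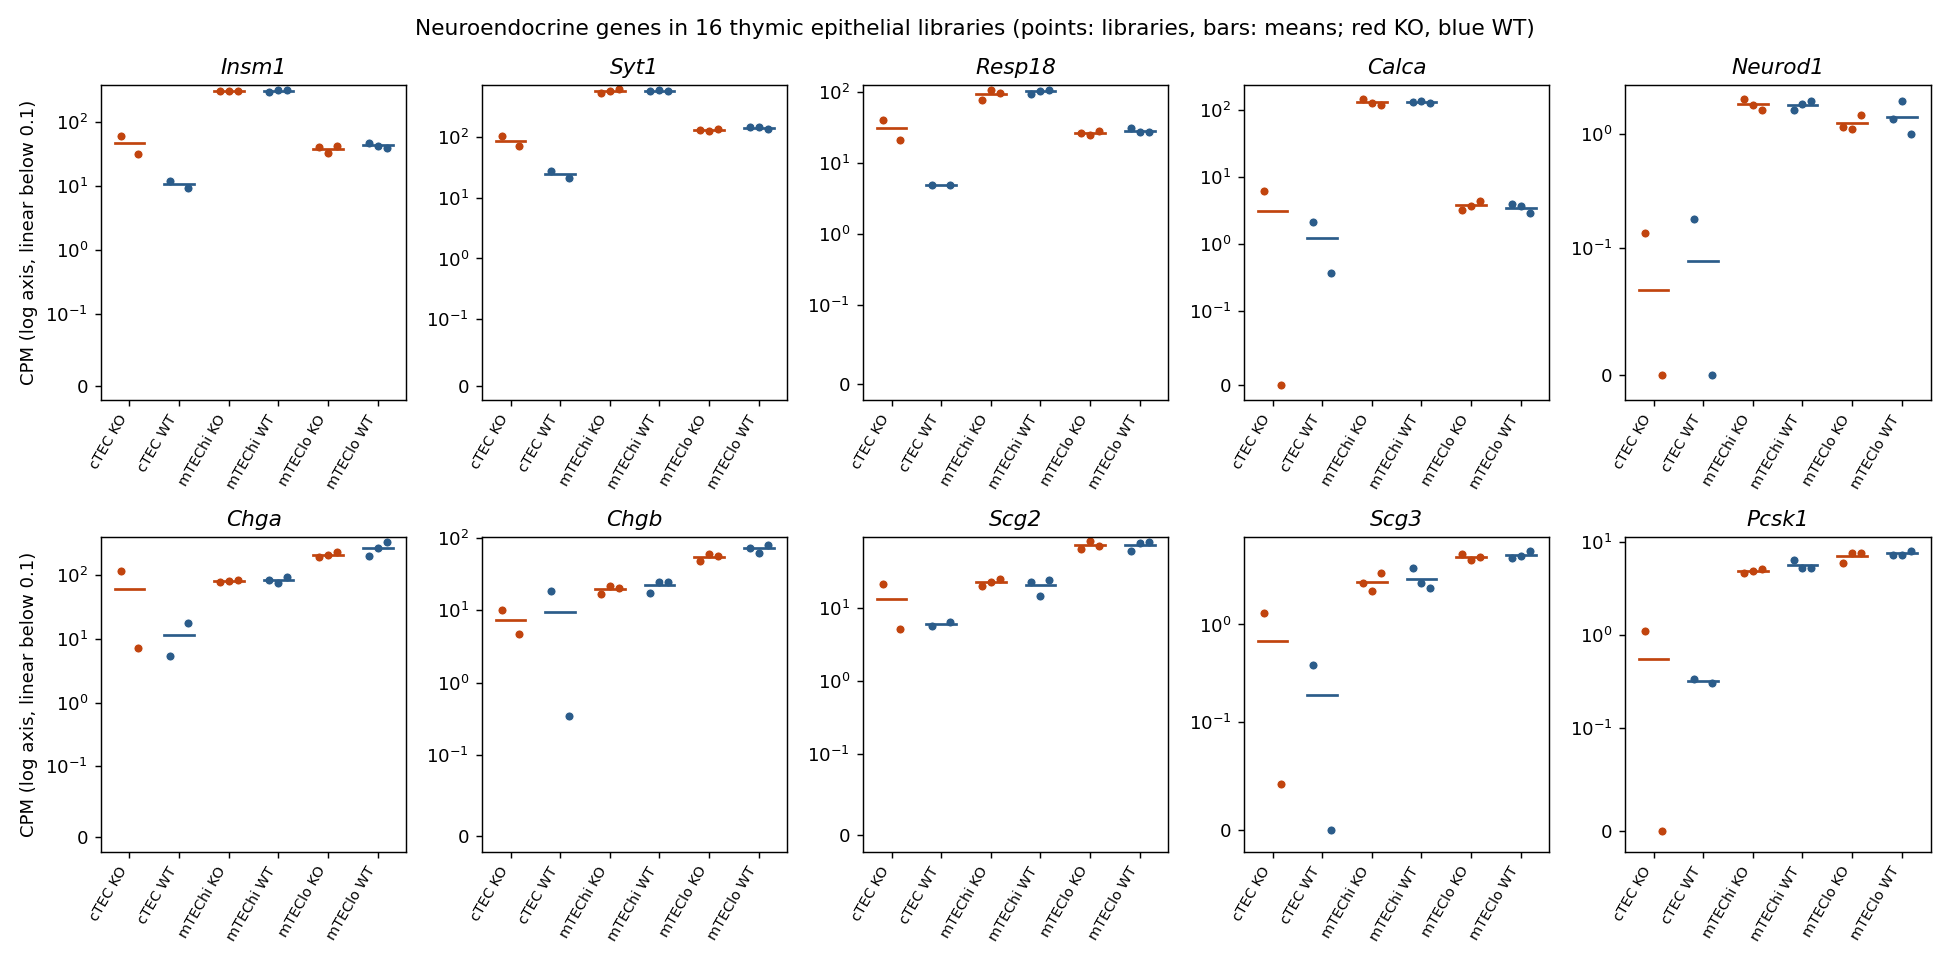
CPM of the 10 genes in each of the 16 libraries (points, on an axis that is logarithmic above 0.1 and linear below it), with group means as bars, KO in red and WT in blue. Insm1, Syt1, Resp18 and Calca are highest in mTEChi, and Chga, Chgb, Scg2, Scg3 and Pcsk1 in mTEClo, in both genotypes.

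Within the medulla, 4 of the 10 genes were called higher and 5 lower in mTEChi than in mTEClo. This held in KO and in WT libraries, which are separate sets fitted together. Of all genes tested, 43.0% were called higher and 37.5% lower in KO, and 42.9% and 36.6% in WT. The share called among the 10 was near that background. Insm1, Syt1, Resp18 and Calca were higher in mTEChi than in mTEClo, Calca most of all. Chga, Chgb, Scg2, Scg3 and Pcsk1 were lower in mTEChi. Neurod1 was called in neither genotype. In bulk RNA, fewer cells of a type and less RNA per cell cannot be told apart.

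Insm1, the transcriptional regulator, had 304, 299.7 and 303 CPM in mTEChi KO and 40.7, 32.2 and 41.7 CPM in mTEClo KO. In WT it had 291, 313 and 314 CPM in mTEChi and 47.1, 42.2 and 39.0 CPM in mTEClo. The populations did not overlap in either genotype, and the log2 fold change of mTEChi over mTEClo was 2.99 ± 0.10 (SE) in KO and 2.84 ± 0.10 in WT (adjusted p = 4.64e-13 and 8.03e-13, edgeR quasi-likelihood test with Benjamini-Hochberg adjustment over 19756 genes). Neurod1, the other transcription factor, had 2.04, 1.81 and 1.61 CPM in mTEChi KO and 1.16, 1.11 and 1.47 CPM in mTEClo KO. It had 1.62, 1.83 and 1.95 CPM in mTEChi WT and 1.34, 1.93 and 0.993 CPM in mTEClo WT. The Neurod1 libraries did not overlap in KO and overlapped in WT, with log2 fold changes of 0.54 ± 0.27 (adjusted p = 0.0732) and 0.34 ± 0.27 (adjusted p = 0.255, same edgeR test).

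Syt1, the fusion sensor, had 536, 571 and 618 CPM in mTEChi KO and 133, 126 and 136 CPM in mTEClo KO. In WT the values were 583, 594 and 575 CPM in mTEChi and 149, 147 and 138 CPM in mTEClo. Every mTEChi library stood above every mTEClo library, by 2.13 ± 0.07 (SE) in KO and 2.01 ± 0.07 in WT on the log2 scale (adjusted p = 3.42e-13 and 6.57e-13, edgeR). Resp18 had 78.6, 109 and 97.4 CPM in mTEChi KO and 26.7, 25.0 and 28.4 CPM in mTEClo KO. In WT it had 94.5, 105 and 109 CPM in mTEChi and 31.0, 27.5 and 27.5 CPM in mTEClo. The ranges did not overlap, and the log2 fold changes were 1.83 ± 0.10 in KO and 1.85 ± 0.11 in WT (adjusted p = 3.08e-10 and 2.95e-10, edgeR).

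Calca, the peptide gene, had 145, 127 and 118 CPM in mTEChi KO and 3.19, 3.72 and 4.32 CPM in mTEClo KO. In WT it had 133, 135 and 125 CPM in mTEChi and 3.92, 3.63 and 2.88 CPM in mTEClo. That is 34.8-fold higher in mTEChi KO and 37.7-fold higher in mTEChi WT, with log2 fold changes of 5.12 ± 0.13 and 5.24 ± 0.13 (adjusted p = 4.82e-14 and 4.88e-14, edgeR). Counts per gene do not separate the calcitonin and CGRP transcripts of this gene.

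The granins went the other way. Chga had 77.6, 80.0 and 82.6 CPM in mTEChi KO and 186, 203 and 228 CPM in mTEClo KO. In WT it had 84.0, 75.4 and 91.1 CPM in mTEChi and 195, 259 and 321 CPM in mTEClo. No library overlapped, and Chga was lower in mTEChi by a log2 fold change of -1.36 ± 0.14 in KO and -1.63 ± 0.14 in WT (adjusted p = 2.14e-07 and 2.85e-08, edgeR). Chgb had 16.9, 21.3 and 20.3 CPM in mTEChi KO and 47.6, 59.7 and 56.9 CPM in mTEClo KO. In WT it had 17.3, 24.4 and 24.3 CPM in mTEChi and 72.6, 62.3 and 79.2 CPM in mTEClo. The Chgb log2 fold changes were -1.49 ± 0.14 in KO and -1.70 ± 0.14 in WT, close in size to those of Chga.

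Scg2 had 19.8, 23.0 and 24.7 CPM in mTEChi KO and 63.6, 82.3 and 69.9 CPM in mTEClo KO. In WT it had 22.3, 14.7 and 24.1 CPM in mTEChi and 61.1, 77.5 and 80.6 CPM in mTEClo. Scg2 was the member furthest below 0, at -1.68 ± 0.16 in KO and -1.85 ± 0.16 in WT on the log2 scale (adjusted p = 1.39e-07 and 5.06e-08, edgeR). Scg3 ranged from 2.22 to 3.40 CPM in mTEChi KO against 4.57 to 5.28 CPM in mTEClo KO, and from 2.35 to 3.76 CPM in mTEChi WT against 4.83 to 5.74 CPM in mTEClo WT. Its log2 fold change was -0.83 in both genotypes (SE 0.20, adjusted p = 0.00155 in KO and 0.00161 in WT, edgeR). Pcsk1, the convertase, ranged from 4.64 to 5.12 CPM in mTEChi KO against 6.07 to 7.69 CPM in mTEClo KO, and from 5.29 to 6.44 CPM in mTEChi WT against 7.28 to 8.15 CPM in mTEClo WT. It had the smallest called difference, -0.54 ± 0.14 in KO and -0.42 ± 0.14 in WT (adjusted p = 0.00258 and 0.0124, edgeR).

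Populations did not overlap for 10 of the 10 genes in KO and 9 of the 10 in WT, against 81.5% and 83.1% of all genes. In all, 9 of the 10 genes passed the threshold of 0.05 in each genotype, 4 higher and 5 lower in mTEChi. The 2 populations differ so widely that 80.5% of all genes tested were called in KO (43.0% higher, 37.5% lower) and 79.5% in WT (42.9% higher, 36.6% lower), so the share of the 10 was near the background. Their median log2 fold change was 0.00 in KO and -0.04 in WT, against 0.08 over all genes in both. Scaling with DESeq2 size factors moved the median of all genes up by 0.23 in KO and 0.21 in WT, and the split of called genes from 8486 higher and 7408 lower to 10006 and 5490 in KO, and from 8475 and 7239 to 9837 and 5502 in WT. No member turned its direction under that scaling, but Pcsk1 lost its call in both genotypes (adjusted p = 0.0577 in KO and 0.178 in WT) and Neurod1 gained one in KO (adjusted p = 0.0146). In a fit of all 16 libraries, Chga lost its call in KO, and Chgb, Scg3 and Pcsk1 lost theirs in both genotypes.

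**Figure D2:**
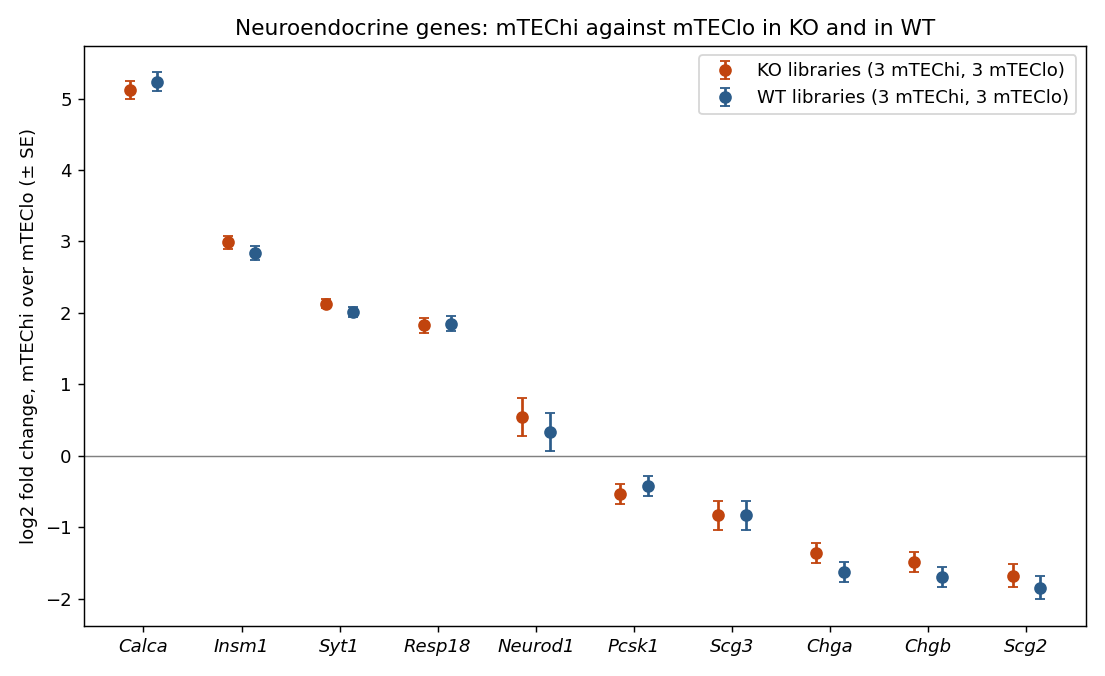
Log2 fold change of mTEChi over mTEClo (± SE) for the 10 genes in KO (red) and WT (blue), 3 libraries per population and genotype. Calca, Insm1, Syt1 and Resp18 lie above 0 and Pcsk1, Scg3, Chga, Chgb and Scg2 below 0 in both genotypes.

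The promoters of these genes are shown as a description, sorted by the direction called above in these same data. The share of members called was near that of all genes, so the sorting is not a result about the members. RefSeq (GRCm38.p6) windows from 250 bases before to 50 after the gene start were at hand for 9 of the 10, all but Insm1. They were searched on both strands for TGACGTCA, the palindrome bound by CREB-family factors and long studied in granin promoters, and for its shorter form TGACG, which each palindrome contains. TGACGTCA was found in 588 of all 32851 windows (1.79%) and in 3 of the 9, those of Chgb, Scg2 and Pcsk1. TGACG was found in 20.8% of all windows and in 6 of the 9. The 120 bases before the start are printed 5′ to 3′ in the direction of the gene, with the matched letters in capitals.
Chga: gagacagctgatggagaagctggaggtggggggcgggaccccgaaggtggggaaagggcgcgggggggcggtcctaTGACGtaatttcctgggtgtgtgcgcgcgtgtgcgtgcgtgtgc
Chgb: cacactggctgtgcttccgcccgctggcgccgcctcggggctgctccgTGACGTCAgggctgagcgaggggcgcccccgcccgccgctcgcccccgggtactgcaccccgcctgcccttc
Scg2: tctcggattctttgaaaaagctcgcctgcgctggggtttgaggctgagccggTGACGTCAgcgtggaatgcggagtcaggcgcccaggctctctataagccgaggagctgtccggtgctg
Scg3: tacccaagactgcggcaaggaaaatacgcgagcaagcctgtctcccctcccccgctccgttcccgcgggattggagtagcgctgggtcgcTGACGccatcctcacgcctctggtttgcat
Pcsk1: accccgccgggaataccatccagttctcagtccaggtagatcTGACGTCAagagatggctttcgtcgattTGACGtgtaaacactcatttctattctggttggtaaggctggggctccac
Calca: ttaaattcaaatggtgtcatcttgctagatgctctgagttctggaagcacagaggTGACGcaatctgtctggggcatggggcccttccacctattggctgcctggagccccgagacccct
Resp18: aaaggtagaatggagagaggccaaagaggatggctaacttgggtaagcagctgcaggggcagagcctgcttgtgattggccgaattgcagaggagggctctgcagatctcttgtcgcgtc
Syt1: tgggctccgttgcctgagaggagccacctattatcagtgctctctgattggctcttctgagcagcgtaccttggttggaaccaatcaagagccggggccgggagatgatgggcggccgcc
The windows lie at chr12:102554821-102554940 (plus strand, Chga), chr2:132781522-132781641 (plus, Chgb), chr1:79440027-79440146 (minus, Scg2), chr9:75684057-75684176 (minus, Scg3), chr13:75089737-75089856 (plus, Pcsk1), chr7:114636358-114636477 (minus, Calca), chr1:75278416-75278535 (minus, Resp18) and chr10:109010976-109011095 (minus, Syt1). Counted from the start, the palindrome began at -72 in Chgb, -68 in Scg2 and -78 in Pcsk1, and the short form at -44 in Chga, -30 in Scg3 and -65 in Calca. Starts differ between annotations: the RPKM table begins Chgb at 132781278, so the printed Chgb stretch lies inside the gene as that table has it, and GENCODE begins Scg2 at 79440120, within the printed stretch. GENCODE also begins Pcsk1 at 75089826 and Syt1 at 109010982, each within its printed stretch. Counted from the RefSeq starts, Chgb, Scg2 and Pcsk1, lower in mTEChi, held the palindrome. Chga and Scg3, also lower, held only the short form, which was in 20.8% of all windows. Of the genes higher in mTEChi, Calca held only the short form, and the Resp18 window and both Syt1 windows held neither. The Neurod1 window held neither as well. Whether the letters bear on the direction was not tested. Of 3 other motifs searched in the same windows, the E-box CANNTG was in 72.3% of all windows and in those of 7 of the 9 genes, TATAAA in 13.6% and in that of Chga alone, and RE1, the site of the Rest protein, in 0.0639% and in none of the 9. These are matches of letters, and no binding was measured.

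The wider program, in 4 lists of other genes, went both ways in the same comparison within each list. The counts are to be read against the 80.5% of all genes called in KO and the 79.5% in WT (43.0% and 42.9% higher), and no list was tested against another. Of 17 peptide hormone genes, 14 were higher and 1 lower in mTEChi KO, and 15 higher and 2 lower in mTEChi WT, with medians of 4.66 and 4.86 on the log2 scale. Calcb, the neighbour and near-copy of Calca, had 294 to 341 CPM in mTEChi KO against 10.8 to 13.9 CPM in mTEClo KO, a log2 fold change of 4.66 (4.86 in WT). Pomc, the precursor of ACTH and melanocortins, had log2 fold changes of 6.19 in KO and 6.14 in WT, and Npy, neuropeptide Y, 7.57 and 7.72. The Npy values rest on 26 counts summed over mTEClo KO and 18 over mTEClo WT. Ghrl, the ghrelin gene, was lower in both (-0.90 and -0.87), and Iapp, amylin, was lower in WT (-0.30) and not called in KO (-0.03, adjusted p = 0.736, edgeR); both were chosen after their values were seen.

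Of 13 granule cargo and processing genes, 8 were higher and 4 lower in mTEChi KO, and 7 higher and 5 lower in mTEChi WT. The vesicular monoamine transporters Slc18a1 and Slc18a2 were higher by 3.62 and 3.61 on the log2 scale in KO and by 3.34 and 4.04 in WT. Vgf, a granin-like peptide precursor, was higher by 3.52 and 3.37, and Cadps, a priming factor of dense-core vesicles, by 3.0 and 3.03. Scg5, a granin that assists another convertase and was chosen after its value was seen, was lower by a log2 fold change of -0.69 in KO and -0.58 in WT, the same side as the 4 granin members.

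Of 19 exocytosis genes, 12 were higher and 5 lower in mTEChi KO, and 11 higher and 5 lower in mTEChi WT. Syt4 and Syt7, relatives of Syt1, were higher by 6.00 and 1.43 in KO and by 7.41 and 1.18 in WT. The Syt4 values rest on 46 counts summed over mTEClo KO and 14 over mTEClo WT. Further relatives, chosen after their values were seen, went both ways. Syt13 averaged 46.3 CPM in mTEChi KO against 32.0 CPM in mTEClo KO (48.6 against 35.4 CPM in WT). Syt5 averaged 2.09 CPM in mTEChi KO against 4.56 CPM in mTEClo KO (2.47 against 5.57 CPM in WT). The complexins divided, with Cplx1 at 4.88 and 5.09 and Cplx2 at -1.72 and -1.83 in KO and WT. Snap25, the membrane SNARE that partners Syt1, was lower (-1.46 in KO and -1.81 in WT).

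Of 13 regulators, 4 were higher and 7 lower in mTEChi KO, and 5 higher and 7 lower in mTEChi WT. Insm2, the relative of Insm1, was higher by 4.56 and 5.16, with at most 0.139 CPM in any mTEClo library. Pax4 and Neurog3, pancreatic endocrine factors, were higher by 5.22 and 1.58 in KO and by 4.06 and 1.61 in WT. The Pax4 values rest on 8 counts summed over mTEClo KO and 15 over mTEClo WT. Pax4 averaged 0.998 CPM in mTEChi KO and 0.926 CPM in mTEChi WT. Isl1 (-2.32 and -2.26), St18 (-1.82 and -1.92), and Rest, the repressor of neuronal genes (-1.40 and -1.61), were lower. Isl1, an endocrine and neuronal homeobox factor, had 23.5 to 24.8 CPM in mTEChi KO and 112 to 128 CPM in mTEClo KO.

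**Figure D3:**
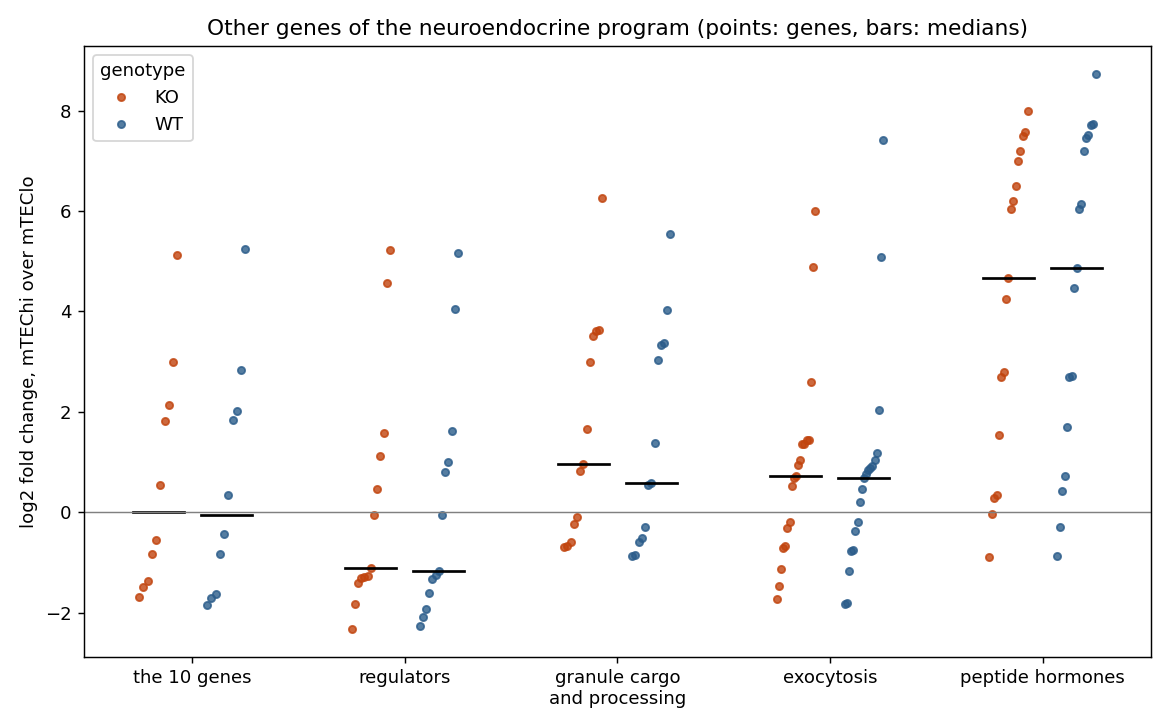
Log2 fold change of mTEChi over mTEClo for each gene (points) of the 10 genes and of 4 other lists, in KO (red) and WT (blue), with list medians as black bars. The peptide hormone genes sit furthest above 0, with medians of 4.66 and 4.86, and the regulators' medians lie below 0.

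Markers of other cells moved with the same comparison. Their counts are to be read against all genes, of which 43.0% were called higher and 37.5% lower in KO, and 42.9% and 36.6% in WT. The 10 neuron and chromaffin markers summed to 131 to 146 CPM in mTEChi KO against 18.5 to 21.7 CPM in mTEClo KO. In WT they summed to 128 to 138 CPM in mTEChi against 23.5 to 26.7 CPM in mTEClo. Of the 10, 7 were higher and 1 lower in KO, and 8 higher and 1 lower in WT. The lower one was Elavl4, at means of 2.79 CPM in mTEChi KO against 4.78 CPM in mTEClo KO. None of the 10 was at 0 in every library of a medullary group. Of 7 Schwann cell markers, 6 were higher in mTEChi KO and 7 in mTEChi WT, with sums of 176 to 194 CPM in mTEChi against 87.7 to 94.0 CPM in mTEClo. All 10 tuft cell markers were lower in mTEChi, with sums of 375 to 447 CPM in mTEChi KO against 1723 to 2339 CPM in mTEClo KO, and of 424 to 574 CPM in mTEChi WT against 2573 to 2705 CPM in mTEClo WT. Of the 9 medullary markers tested, 8 were higher and 1 lower in mTEChi in each genotype. All 5 myeloid markers were higher in both genotypes, with sums of 485 to 504 CPM in mTEChi KO against 45.6 to 74.2 CPM in mTEClo KO, and of 486 to 500.3 CPM in mTEChi WT against 62.8 to 64.9 CPM in mTEClo WT. So were all 4 B cell markers, with sums of 29.2 to 30.9 CPM in mTEChi against 9.83 to 16 CPM in mTEClo. Lyz2 made up most of the myeloid sum in mTEChi, at means of 420 CPM in KO and 421 CPM in WT. Of 8 thymocyte markers, 2 were higher and 0 lower in mTEChi in each genotype. Ptprc (CD45), one of these 8, averaged 18.5 CPM in mTEChi KO against 24.7 CPM in mTEClo KO. In WT it averaged 18.2 CPM against 26.9 CPM. The part of these other cells in the members' values was not tested.

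KO against WT, none of the 10 genes passed the threshold in the medulla, by edgeR, DESeq2 or limma voom. In mTEChi, log2 fold changes of KO over WT ran from -0.21 (Pcsk1) to 0.15 (Scg2), each with an adjusted p of 1.00 (edgeR), and none of the 10 had an unadjusted p under 0.05. The widest 95% interval, that of Neurod1, ran from -0.55 to 0.58. Pcsk1 alone had groups that did not overlap, at 4.64, 4.94 and 5.12 CPM in mTEChi KO against 6.44, 5.29 and 5.29 CPM in mTEChi WT; 4.40% of all genes did so in that direction. Across all genes tested, 1 was called (0.00506%).

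In mTEClo, 9 of the 10 log2 fold changes of KO over WT were below 0, beside 8 of the 10 in mTEChi. Their medians were -0.12 in mTEClo and -0.04 in mTEChi, against 0.004 and 0.003 over all genes tested. The 10 values of a population come from the same libraries, so their directions are not separate results. Again no member was called in mTEClo, against 13 of all genes (0.0658%). Chgb had the largest difference, with 47.6, 59.7 and 56.9 CPM in KO against 72.6, 62.3 and 79.2 CPM in WT, a log2 fold change of -0.38 with a 95% interval from -0.67 to -0.10 (adjusted p = 0.205, edgeR). Chga had 186, 203 and 228 CPM in KO against 195, 259 and 321 CPM in WT (-0.33, interval -0.61 to -0.05, adjusted p = 0.260, edgeR), and the groups overlapped. Syt1 had 133, 126 and 136 CPM in KO against 149, 147 and 138 CPM in WT (-0.14, interval -0.28 to -0.00437, adjusted p = 0.317, edgeR). These 3 had an unadjusted p under 0.05, as had 3021 of all 19756 genes. Chgb and Syt1 did not overlap between genotypes, as did 7.18% of all genes in that direction. Reads in no gene did not overlap between the genotypes either, at 13.7% to 17.4% in KO against 17.6% to 19.1% in WT, and the tuft markers summed to 1723 to 2339 CPM in KO against 2573 to 2705 CPM in WT; their part in the result was not tested.

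The difference between the KO effects in mTEChi and in mTEClo was called for none of the 10 by edgeR, with no unadjusted p under 0.05, and for 2 of all genes (0.0101%). In the 4 wider lists no gene was called in either population by edgeR or by limma voom. At unadjusted p under 0.05 there were 2 regulators, 1 granule gene and no exocytosis or peptide gene in mTEChi, and 2, 4, 8 and 3 in mTEClo, against 448 and 3021 of all 19756 genes. The smallest p among the exocytosis genes in mTEClo was that of Unc13a, a vesicle priming factor (log2 fold change -0.51, adjusted p = 0.0736, edgeR).

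**Figure D4:**
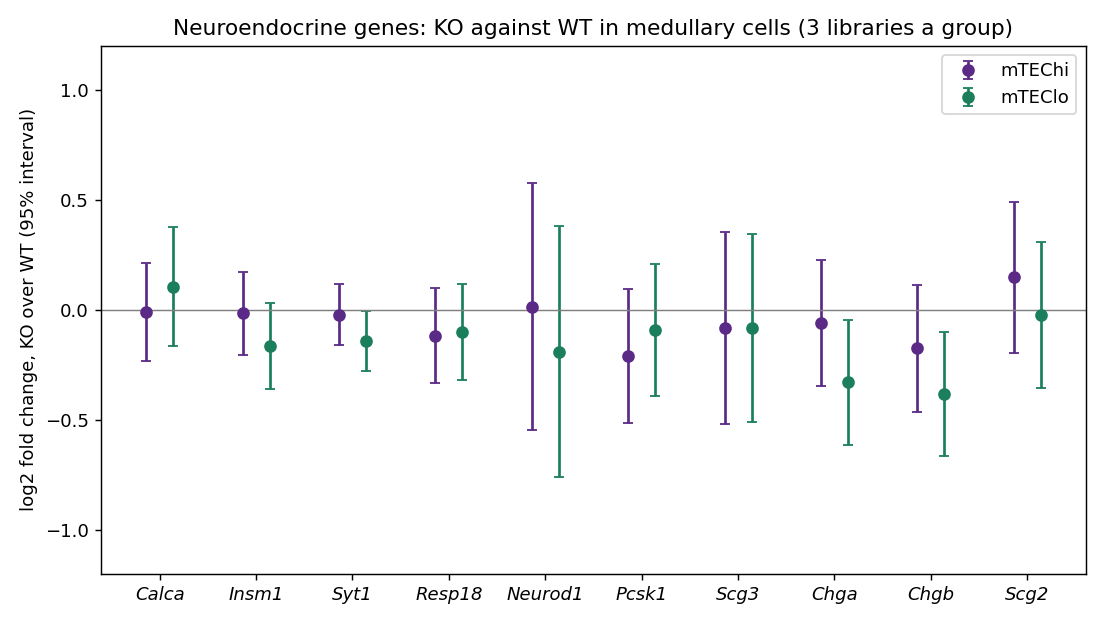
Log2 fold change of KO over WT for the 10 genes in mTEChi (purple) and mTEClo (green), with 95% intervals, 3 libraries per group. In mTEClo 9 of the 10 points lie below 0, and in mTEChi 8 of the 10. The mTEClo intervals of Chgb, Chga and Syt1 end below 0.

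In cTEC, 3 of the members separated the genotypes and the other 7 did not. This contrast chose Insm1 and Syt1, so all 10 are described without a test. Insm1 had 60.1 and 31.6 CPM in cTEC KO against 11.9 and 9.24 CPM in cTEC WT, a 4.35-fold difference. Syt1 had 106 and 71.4 CPM in cTEC KO against 27.7 and 21.1 CPM in cTEC WT, 3.63-fold. Resp18 had 40.8 and 21.2 CPM in cTEC KO against 5.0 and 4.98 CPM in cTEC WT, 6.21-fold. Both KO libraries lay above both WT libraries for each of the 3, as did 21.0% of the 16433 genes tested. The cTEC KO levels of Insm1 and Resp18 overlapped those of mTEClo, and that of Syt1 lay below it.

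Of the remaining members, Chga, Scg2, Calca, Scg3 and Pcsk1 were highest in cTEC KO 1 and lower in cTEC KO 2. These 2 libraries were less alike than any other replicate pair (r of log2 CPM 0.951, against at least 0.990 for the others), and cTEC KO 1 had 30.4% of its reads in no gene against 19.9% in cTEC KO 2 and 20.8% to 22.6% in cTEC WT. It had 5757 gene entries at 0, against 8541 in cTEC KO 2. Chga had 114 and 7.02 CPM in cTEC KO against 5.26 and 17.7 CPM in cTEC WT, a log2 fold change of 2.40 that became -0.71 without cTEC KO 1. Scg2 had 21.6 and 5.08 CPM in cTEC KO against 5.67 and 6.45 CPM in cTEC WT, 1.14 on the log2 scale and -0.25 without that library. Calca had 6.20 and 0 CPM in KO against 2.10 and 0.360 CPM in WT. Scg3 (1.31 and 0.0421 CPM in KO, 0.380 and 0 CPM in WT), Pcsk1 (1.10 and 0 CPM in KO, 0.336 and 0.305 CPM in WT) and Neurod1 (0.134 and 0 CPM in KO, 0.179 and 0 CPM in WT) were low throughout, with at least 1 library at 0 each. Chgb had 10.1 and 4.65 CPM in KO against 18.5 and 0.349 CPM in WT, so it varied more within WT than between the genotypes.

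**Figure D5:**
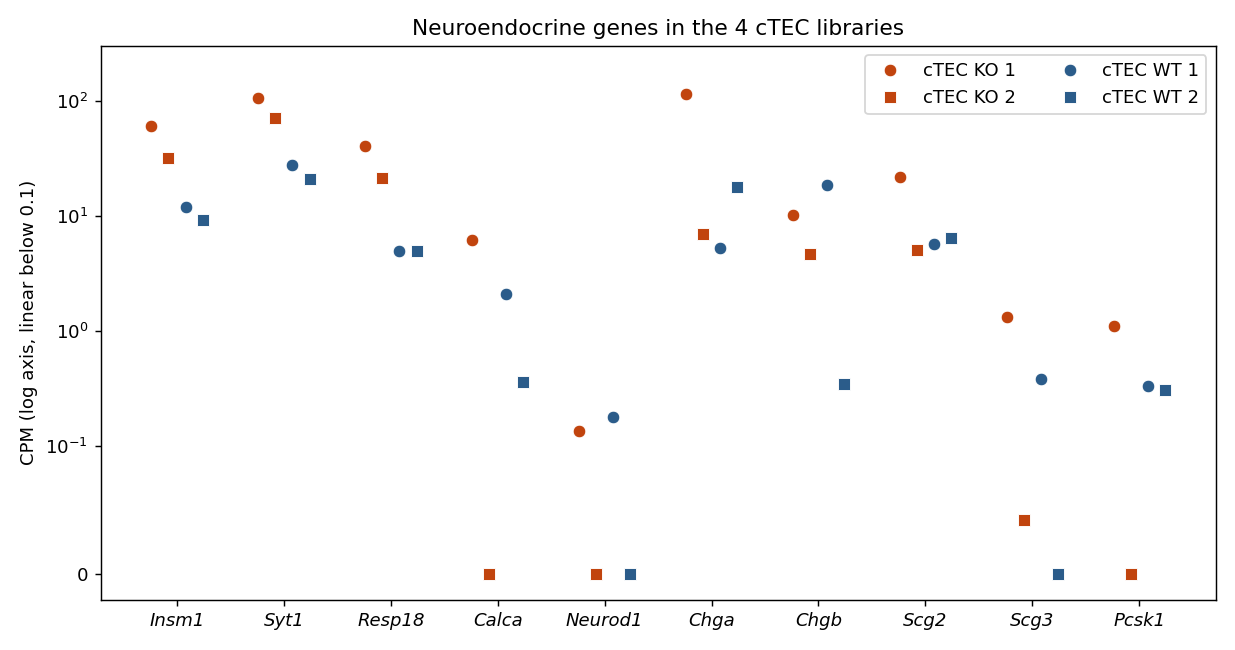
CPM of the 10 genes in the 4 cTEC libraries (axis logarithmic above 0.1 and linear below it), KO in red and WT in blue, circles for library 1 and squares for library 2 of each genotype. Insm1, Syt1 and Resp18 separate the genotypes, while Chga, Scg2, Scg3, Pcsk1 and Calca are high in cTEC KO 1 and not in cTEC KO 2.

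Of all genes tested in cTEC, edgeR called 0 (0%) on the 4 cTEC libraries, with 1939 at an unadjusted p under 0.05. The count varied between fits. DESeq2 on the same 4 libraries called 821, and limma voom on all 16 libraries called 178 (171 higher, 7 lower). In the wider lists edgeR called none, with 1 regulator, 4 granule, 4 exocytosis and 4 peptide genes at an unadjusted p under 0.05, and limma voom called 2 peptide genes, both higher. Iapp had 13.2 to 14.3 CPM in cTEC KO against 0.261 to 0.537 CPM in cTEC WT (log2 fold change 5.10, adjusted p = 0.10, edgeR). Grp, gastrin-releasing peptide, had 35.4 to 49.0 CPM in cTEC KO against 16.6 to 19.4 CPM in cTEC WT (1.23, adjusted p = 0.172, edgeR). Beside these values, medullary markers summed to 1211 to 1396 CPM in cTEC KO against 769 to 820 CPM in cTEC WT, tuft markers to 894 to 1316 CPM against 415 to 499 CPM, and cortical markers to 4473 to 5373 CPM against 6758 to 8006 CPM. The sums of neuron and chromaffin markers overlapped, at 21.3 to 23.7 CPM in KO and 16.1 to 23.2 CPM in WT. So did those of fibroblast, endothelial and thymocyte markers. Single markers within these sums could still separate the genotypes. Of 10 neuron and chromaffin markers, 3 did so higher in KO and 1 lower, and of 7 fibroblast markers 3 higher and 1 lower. Of 8 thymocyte markers 2 did so higher and 0 lower, and of 4 endothelial markers 0. Among all genes tested, 21.0% did so higher. B cell markers summed to 11.8 to 12 CPM in cTEC KO against 2.08 to 4.05 CPM in cTEC WT, myeloid markers to 67.8 to 106 CPM against 31.5 to 65.1 CPM, and Schwann cell markers to 91.8 to 98.3 CPM against 75.8 to 86.4 CPM. The part of other cells in the cTEC values was not tested.

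Between WT populations, 7 of the 8 members with a test were lower in cTEC than in mTEChi and 7 of 8 lower than in mTEClo, against 40.5% and 20.9% of all genes (69.3% and 33.0% in either direction). These tests used 2 cTEC WT libraries and a spread shared by all 16 libraries (coefficient of variation 0.280). Fitted apart, it was 0.661 in cTEC and 0.124 in medullary libraries. In simulated counts the shared fit called many unchanged genes where cTEC entered, so its p-values may be too small. Resp18 was lower by a log2 fold change of -4.37 ± 0.25 against mTEChi and -2.52 ± 0.23 against mTEClo (adjusted p = 2.52e-09 and 1.51e-06, edgeR). Scg2 was lower by -1.75 ± 0.42 and -3.59 ± 0.46 (adjusted p = 0.00242 and 3.97e-05). Chga was lower by -2.86 ± 0.79 and -4.49 ± 0.86 (adjusted p = 0.00566 and 0.00109), and lost the call against mTEChi without cTEC WT 1 (adjusted p = 0.0627). Calca was lower than in mTEChi by -6.74 ± 1.05 (adjusted p = 7.47e-05) and not called against mTEClo (-1.50 ± 0.90, adjusted p = 0.228), and Chgb was not called against mTEChi (-1.23 ± 0.82, adjusted p = 0.197). Chgb had 18.5 CPM in cTEC WT 1 and 0.349 CPM in cTEC WT 2, and without cTEC WT 1 it was called at -5.97 (adjusted p = 7.13e-07, edgeR). Limma voom, which weights each library, called all 8 in both comparisons, Chgb at -3.12 against mTEChi. Neurod1 lost its call against mTEClo without cTEC WT 2 (adjusted p = 0.0621, edgeR). DESeq2 size factors moved the median of all genes by -0.15 in the comparison with mTEChi. The cTEC WT values enter both of these comparisons.

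Pearson's r of log2(CPM + 1) over the 16 libraries, which include the cTEC values that chose Insm1 and Syt1 and the medullary values compared above, restates these levels. It ran from 0.879 to 0.980 among Insm1, Syt1, Resp18 and Calca, from 0.742 (Chga and Chgb) to 0.966 (Scg3 and Pcsk1) among the 5 genes lower in mTEChi, and from -0.00849 (Scg2 and Calca) to 0.640 (Pcsk1 and Syt1) between the 2 sets. Neurod1 stood at 0.581 to 0.886 with the other 9. These are descriptions over libraries that fall into 6 groups. Among 16058 genes with a mean of at least 1 CPM, those most like Insm1 included Cdx1 (r = 0.997), an intestinal homeobox factor, Laptm5, Skint4 and Gjb2, and none of the other members was among the 100 most alike. Cdx1 averaged 308 CPM in mTEChi KO and 318 CPM in mTEChi WT, and 24.4 CPM in mTEClo KO and 26.7 CPM in mTEClo WT. Those most like Chga were Fam183b (r = 0.985), Tmem200a, Snap25, Slc35d3 and Rbp4, the serum retinol carrier, and Scg2 and Scg3 were among its 100 most alike. With Spearman's correlation none of these 5 remained among the 5 most like Chga, and 1 of 5 remained for Insm1. Snap25 averaged 6.30 CPM in mTEChi KO and 5.85 CPM in mTEChi WT, and 17.3 CPM in mTEClo KO and 20.5 CPM in mTEClo WT.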

How the data were processed

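The authors deposited raw read counts per gene symbol and RPKM values with gene coordinates; mm10, HTSeq 0.5.4p1 and CASAVA 1.8.2 are named in the submitters' processing notes, and the aligner and the lengths behind the RPKM are not given in the sources used here. Per the labels' protocols the TruSeq RNA kit was used, which does not mark strand. edgeR 4.0.16 (R 4.3.3) was run on the counts with TMM factors over all 16 libraries, filterByExpr, quasi-likelihood F test, Benjamini-Hochberg adjustment over all genes tested, threshold 0.05. Medullary comparisons came from the 12 medullary libraries (19756 genes, biological coefficient of variation 0.124), KO against WT in cTEC from the 4 cTEC libraries (16433 genes, 0.661), and cTEC against medullary WT from all 16 (20023 genes, 0.280). All 10 members passed each filter. Scripts were tested on simulated counts, in which the fit of all 16 libraries called many unchanged genes where cTEC entered. For this reason limma voom with a weight per library (limma 3.58.1) is given beside it. The voom fit also used all 16 libraries, in every comparison. DESeq2 1.42.0 was another alternative. The SE came from the F statistic. RPKM served only for levels between genes. RefSeq promoter windows and GENCODE annotation (GRCm38) gave sequence and overlaps. Members and gene lists were chosen with earlier results of these data known; the lists' named genes were up to 4 called genes per direction, smallest p first, that changed by 1 or more on the log2 scale, and otherwise up to 2 by smallest p. Some genes that the rule took are left out of the text. Figures were drawn with matplotlib 3.10.9.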

Additional observations from a re-analysis of the deposited data

Results flagged for a closer look

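Syt1 had KO and WT libraries that did not overlap in cTEC and in mTEClo, on opposite sides. In cTEC both KO libraries (106 and 71.4 CPM) stood above both WT libraries (27.7 and 21.1 CPM), and in mTEClo the KO libraries (133, 126 and 136 CPM) stood below the WT libraries (149, 147 and 138 CPM). That separation on opposite sides is the reason it is listed. The KO over WT log2 fold changes of cTEC and mTEClo differ by 2.0. The difference between the 2 effects was not tested, and Syt1 had been picked for its rise in cTEC KO. The mTEClo difference was not called (adjusted p = 0.317, edgeR).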

How the results depend on the processing

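Counts of genes called and of members called were recomputed with DESeq2 size factors, no filter on low counts, DESeq2's test, a replicate block, 1 fit of all 16 libraries and limma voom, and with each library left out; counts in the wider lists were recomputed with voom alone, and counts of groups that do not overlap were not. For mTEChi against mTEClo, 9 of the 10 members were called in KO and in WT in every fit without 1 library. In KO, 5 were called in the fit of all 16 libraries, in which Chga, Chgb, Scg3 and Pcsk1 lost their call (adjusted p = 0.0700, 0.0788, 0.433 and 0.526), and so in WT did Chgb, Scg3 and Pcsk1 (0.0501, 0.439 and 0.626). Genes called ranged from 15419 to 15753 in KO and from 15185 to 15381 in WT with 1 library left out. For KO against WT no member was called in mTEChi or mTEClo under any of these. In mTEChi the genes called were 1 in the main fit and in each fit without 1 library, 4 with DESeq2, 0 with all 16 libraries and 2 with voom. In mTEClo they were 13, then 25 with no filter, 589 with DESeq2, 6 with the replicate block, 0 with all 16 and 66 with voom, and 5 to 114 without 1 library (114 without KO 3, 67 without KO 1, 5 without WT 1 or WT 2). For the difference of effects they were 2, then 16 with DESeq2, 1 with the block, 0 with all 16 and 0 with voom, and 0 to 4 without 1 library, the most without mTEClo KO 2. In cTEC they were 0, then 298 with no filter, 821 with DESeq2, 767 with the block, 4495 with all 16, 178 with voom, and 160 to 2683 without 1 library, the most without cTEC KO 1 (2683; 583 without KO 2, 169 without WT 1 and 160 without WT 2). Members called for cTEC against mTEClo numbered 6 to 7 without 1 library. Against mTEChi they numbered 7, but without cTEC WT 1 Chgb entered (-5.97, adjusted p = 7.13e-07) and Chga left (-2.24, adjusted p = 0.0627). Genes called ranged from 5126 to 6010 against mTEClo and from 12354 to 13004 against mTEChi.

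Log2 fold changes near 0 changed sign with 1 library left out. In KO against WT of mTEChi they ranged from -0.0764 to 0.0973 for Neurod1, -0.226 to 0.00137 for Resp18, -0.0770 to 0.0261 for Syt1, -0.267 to 0.139 for Scg3, -0.0952 to 0.0546 for Calca, -0.0460 to 0.283 for Scg2, -0.0515 to 0.00245 for Insm1 and -0.128 to 0.00772 for Chga. In mTEClo they ranged from -0.137 to 0.0579 for Scg2, -0.151 to 0.0105 for Pcsk1, -0.0136 to 0.2095 for Calca and -0.394 to 0.0950 for Neurod1. Neurod1 in mTEChi was -0.00832 with voom. The causes were not tested. The labels tie no number to an animal or day, and same-numbered libraries did not deviate together in every pair (r from -0.22 to 0.26 over the group pairs compared), so the replicate number was taken as a name only. Between mTEChi KO and mTEClo KO each library correlated best with its own number (r = 0.257, 0.0956 and 0.202), a hint from the data and not the design; with the block, 9 members and 15832 genes were called there. Of members among the 100 genes most like Insm1, Spearman's correlation gave 1, and for Chga log2(CPM + 0.1) gave 1.

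With 2 cTEC libraries a genotype, each of Scg3, Pcsk1, Neurod1 and Calca has a library at 0 there, and no fold is given for them in KO against WT.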
